A study of Mus musculus with 13 samples.

Results

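A set of 10 antioxidant defence genes was followed in mouse hematopoietic stem cells (HSCs): Sod1, Sod2, Cat, Prdx1, Prdx2, Gpx1, Gpx4, Txn1, Nfe2l2 and Hmox1. They were chosen by name for their function, with earlier results of these data known. All 10 were present among the 13201 genes of the deposited table and all 10 passed the filter on low counts that left 12846 genes for testing. The libraries came from bone marrow HSCs of wild-type (WT) mice and of MEK1-deficient mice (KO), which miss one of the kinases that phosphorylate ERK (gene Map2k1), either untreated or after 5-fluorouracil (5-FU), a drug that kills dividing blood cells and drives HSCs out of quiescence. Untreated cells gave 3 WT libraries (D1, D2 and D3) and 3 KO libraries (D4, D5 and D6). Treated cells gave 4 WT libraries (A2, A3, A4 and D4) and 3 KO libraries (A5, A6 and A8). Each was made by Smart-seq2 from the polyadenylated RNA of 100 sorted cells. The labels used here give neither the dose of 5-FU, the interval before sorting nor the age of the mice, nor how MEK1 was deleted. The labels do not say whether libraries of a group came from separate mice, so the tests rest on variation among libraries, some of which may be technical. The series' design text counts 1 technical replicate among the untreated WT libraries without naming it, so the 3 used here may hold fewer than 3 independent samples. Their pairwise Pearson r across genes was 0.914 to 0.928, so that no pair of them stood out. A replicate summed into a library would not show in these r values. D1 held the most reads of all libraries, 45384866. When reads were recovered from the deposited values, the constant added to each count was 2 in D1 and 1 in the other libraries. Whether D1 sums more than 1 run was not tested.

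Oxidants formed in mitochondria and at membranes are removed in steps. Superoxide dismutases turn superoxide into hydrogen peroxide, which catalase, the peroxiredoxins and the glutathione peroxidases then reduce. Peroxiredoxins are recharged by thioredoxin and glutathione peroxidases by glutathione, both at the expense of NADPH, and the transcription factor NRF2 (Nfe2l2) switches on many of these genes under oxidative stress. Quiescent HSCs are known for low oxidant levels, and a rise in oxidants is known to push them into cycle and to impair their self-renewal.

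Levels below are normalized counts, that is, reads recovered from the deposited values and divided by the size factor of each library. Log2 differences are on the deposited variance-stabilized scale, which compresses the differences of weakly expressed genes. The libraries held 11416753 to 45384866 reads, and mitochondrial genes took 4.23% to 6.03% of them. Map2k1, the check of the labels, averaged 1262 ± 449 (SD, n = 3) in untreated WT and 635 ± 105 (SD, n = 3) in untreated KO cells, without overlap but short of the threshold (log2 difference -0.69, SE 0.296, adjusted p = 0.46, limma). After 5-FU it averaged 1099 ± 584 (SD, n = 4) in WT and 364 ± 83.8 (SD, n = 3) in KO cells, again without overlap (log2 difference -0.96, SE 0.277, adjusted p = 0.0339, limma), a call that held in 14 of 24 alternative analyses and was lost without any one of the 3 KO 5-FU libraries or of WT 5-FU A3 and D4 (adjusted p over alternatives 1.37e-05 to 0.134). WT 5-FU A2 and A4, at 604 and 584, lay within the range of the untreated KO libraries, 545 to 750. These are counts over the whole gene, and the labels do not say which exons were deleted. The part of undeleted exons in the KO counts was not tested. All 10 HSC markers examined, among them Kit, Procr, Slamf1 and Mecom, had reads in every group, which says nothing of their level. With 5-FU in WT cells 5 of the 10 were lower and 1 was higher (limma, adjusted p below 0.05), where 6.68% of all tested genes were called. Procr averaged 880 in untreated WT and 54.7 in WT 5-FU libraries, with a lowest value of 1.16 there. WT 5-FU A3 and D4 resembled each other more than any other libraries of a group (Pearson r across genes 0.988, where other pairs of a group gave at most 0.977). They differed by more than counting noise (median chi-square per gene 4.32, where other pairs of a group gave 9.8 to 63.8). That does not show that they are separate samples, since technical replicates can differ by more than counting noise too. They were kept as separate libraries. All untreated libraries and WT 5-FU D4 carry an acquisition date in 2015 and the other 5-FU libraries one in 2016. The effect of 5-FU in KO cells therefore cannot be told apart from that of the acquisition year. In WT cells it is nearly confounded with the year as well, since only D4 separates them. After 5-FU, KO and WT can be compared within 2016. The Map2k1 call after 5-FU was also lost with acquisition year as a term and with A3 and D4 averaged.

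Among the 10 genes, thioredoxin and peroxiredoxin 1 stood higher in KO than in WT cells after 5-FU, by 1.84-fold and 1.81-fold. In untreated cells 0 of 10 passed the test between the genotypes, at 0.0311% of all tested genes called. After 5-FU 2 of 10 were called, both higher in KO cells, against 10.9% of all tested genes. The members' median log2 difference was 0.10 there and that of all tested genes -0.02. The response to 5-FU gave 0 of 10 calls in WT cells, against 6.68% of all genes. In KO cells it gave 3 of 10, Txn1 and Prdx1 higher and Cat lower, against 5.92%. Calls are at an adjusted p below 0.05 by limma, with Benjamini-Hochberg adjustment over all 12846 genes. In both comparisons without a call, 0 of 10 had an unadjusted p below 0.05 and voom, a limma fit to the recovered reads, called 0 as well.

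**Figure D1:**
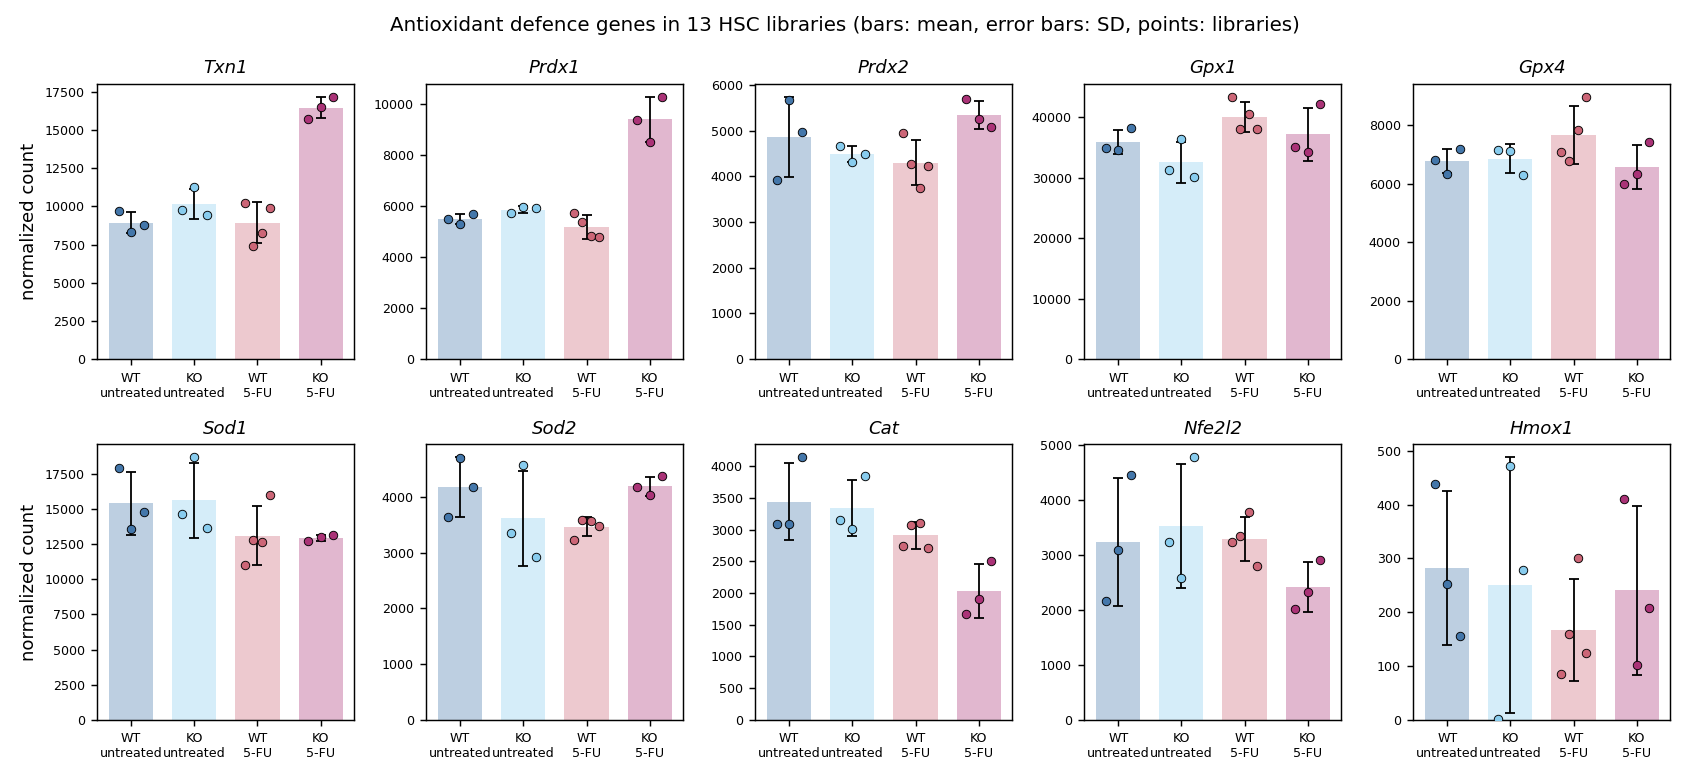
Normalized counts (y axis, linear from 0) of the 10 antioxidant genes in the 4 groups (x axis). Bars are group means, error bars SD and points single libraries. Txn1 and Prdx1 stand highest in all 3 KO libraries after 5-FU, Cat stands lowest there, and Hmox1 varies widely within every group.

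Txn1 encodes cytosolic thioredoxin, the small dithiol protein that reduces peroxiredoxins and ribonucleotide reductase. Its normalized counts were 9701, 8311 and 8791 in untreated WT libraries and 9778, 11268 and 9451 in untreated KO libraries. After 5-FU they were 10241, 7403, 8229.8 and 9876 in WT libraries A2, A3, A4 and D4. In the KO libraries A5, A6 and A8 they were 15730.4, 16544 and 17147. The lowest KO library after 5-FU lay above every library of the other 3 groups, and those groups overlapped one another. The means after 5-FU were 8937 ± 1346 (SD, n = 4) in WT and 16474 ± 711 (SD, n = 3) in KO cells, and the log2 difference was 0.86 (95% interval 0.60 to 1.13, SE 0.127, adjusted p = 0.000371) by limma. Within KO cells Txn1 was 1.62-fold higher after 5-FU than without it (log2 difference 0.68, SE 0.136, adjusted p = 0.00689, limma). In WT cells the log2 difference with 5-FU was -0.01 (95% interval -0.28 to 0.26, adjusted p = 0.98), and between untreated genotypes it was 0.18 (95% interval -0.11 to 0.47, adjusted p = 0.716).

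Prdx1 encodes the cytosolic 2-cysteine peroxiredoxin that reduces hydrogen peroxide and is recharged by thioredoxin. Its counts were 5477, 5315 and 5701 in untreated WT and 5718, 5949.8 and 5919 in untreated KO libraries. In treated cells they were 5732, 5395, 4847 and 4770.3 in the WT and 9395, 8533 and 10293 in the KO libraries. The 3 KO libraries after 5-FU again stood apart from the other 10 libraries, which lay between 4770 and 5950. KO exceeded WT after 5-FU at means of 9407 ± 880.0 (SD, n = 3) and 5186 ± 458 (SD, n = 4), and the log2 difference was 0.81 (95% interval 0.57 to 1.06, SE 0.116, adjusted p = 0.000291) by limma. Within KO cells Prdx1 was 1.6-fold higher after 5-FU (log2 difference 0.64, SE 0.124, adjusted p = 0.00537, limma). The untreated genotypes did not overlap for Prdx1, but by a narrow margin and with a log2 difference of 0.09 (95% interval -0.18 to 0.35, adjusted p = 0.875). Of all tested genes 11.5% had untreated genotypes that did not overlap.

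The genotype difference after 5-FU was compared with that in untreated cells by an interaction term. For Prdx1 it was larger after 5-FU by 0.73 on the log2 scale (SE 0.17, adjusted p = 0.0303, limma), the only call among the 10 genes, where 2.84% of all genes were called. For Txn1 the interaction was of similar size, 0.69 (SE 0.187), and missed the threshold (adjusted p = 0.0567, limma). The call of Prdx1 was lost in 12 of 23 alternative analyses (adjusted p from 0.0164 to 0.078), among them those without any one of the 3 KO 5-FU libraries, the 3 untreated KO libraries, WT 5-FU A3, A4 and D4, and untreated WT D3. That of Txn1 was gained in 4 of 23 (from 0.0313 to 0.131), among them the fit without WT 5-FU A2.

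The higher Txn1 and Prdx1 of KO cells after 5-FU kept their calls in all 24 alternatives tried. Without WT 5-FU D4, both treated groups hold 2016 libraries only. That fit kept the untreated libraries, so its error and adjusted p do not rest on 2016 alone. The log2 difference was then 0.91 for Txn1 (adjusted p = 0.000767, limma, over alternatives 6.53e-06 to 0.00377). For Prdx1 it was 0.78 (adjusted p = 0.00161, over alternatives 2.4e-06 to 0.00287). With the alike libraries A3 and D4 averaged into 1, it was 0.85 for Txn1 and 0.80 for Prdx1. With acquisition year as a term, which rests on WT D4 alone, the 5-FU response of KO cells lost its call for Txn1 (log2 difference 0.88, adjusted p = 0.179, over alternatives 0.00492 to 0.179) and for Prdx1 (log2 difference 0.50, adjusted p = 0.551, over alternatives 0.00279 to 0.551).

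Markers of cell types differed between the same groups. The summed normalized count of the 10 HSC markers was 10905 to 12480 in KO libraries after 5-FU, 15301 to 21854 in WT libraries after 5-FU and 22968 to 31131 in untreated libraries. Between KO and WT after 5-FU, 4 of the 10 HSC markers were lower and 1 was higher, where 10.9% of all tested genes were called. Procr ran against the sum, at means of 54.7 in WT and 223 in KO libraries after 5-FU, without overlap. The sum of the 8 measured megakaryocyte markers was 30369 to 54040 in WT and 4587 to 7366 in KO libraries after 5-FU, with 7 of 8 lower in KO cells. For 12 erythroid markers the sums were 42524 to 46238 in WT and 27721 to 39755 in KO libraries, with 5 of the 11 tested lower in KO cells. Car1 was at 0 in all 3 KO libraries after 5-FU, as in all untreated KO libraries. Car2 made up 82.5% to 90.6% of these sums, and without it they were 6852 to 8069 in WT and 3718 to 4373 in KO libraries. Hbb-bt ran the other way, at means of 1530.5 in WT and 2655 in KO cells. For 8 neutrophil markers the sums were 4101 to 5887 in WT and 2250 to 2404 in KO libraries, with 4 of 8 lower and Mpo and Lcn2 at 0 in KO. Most of these sums was Prtn3, at means of 4033 of 4912 in WT and 2271 of 2310 in KO cells. Mpo was also at 0 in 2 of the 4 WT libraries after 5-FU, and Lcn2 in all untreated WT libraries. Of the few measured markers of mast cells, B cells and T and NK cells, 1 of 2, 1 of 4 and 1 of 2 were lower in KO cells. The part of these shifts in the Txn1, Prdx1 and Cat differences was not tested, and in bulk libraries fewer cells of a type and less RNA per cell cannot be told apart.

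The bases upstream of Prdx1 and Txn1 are shown because these 2 genes moved together (Pearson r = 0.92 over the 13 libraries, a description over libraries of 4 groups). They run up to the first base of the GENCODE gene model, from the RefSeq promoter table of build GRCm38.p6, 5′ to 3′ on the strand of the gene. Capitals mark a match to the core of the antioxidant response element, TGACNNNGC, the site that NRF2 binds with small MAF proteins, searched on both strands.
Prdx1, chr4:116685349-116685543, plus strand: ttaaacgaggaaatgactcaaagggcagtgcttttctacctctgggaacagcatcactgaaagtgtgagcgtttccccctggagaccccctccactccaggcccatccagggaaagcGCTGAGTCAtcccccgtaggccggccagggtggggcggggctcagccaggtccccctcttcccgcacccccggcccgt
Txn1, chr4:57956412-57956661, minus strand: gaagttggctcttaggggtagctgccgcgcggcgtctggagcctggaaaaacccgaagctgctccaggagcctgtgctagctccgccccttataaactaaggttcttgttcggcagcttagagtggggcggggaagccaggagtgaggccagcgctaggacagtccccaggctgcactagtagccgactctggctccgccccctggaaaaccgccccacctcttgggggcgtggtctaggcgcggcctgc

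The Prdx1 window held 1 match, GCTGAGTCA, with its first base 133 bases before the RefSeq start site, read as the core on the opposite strand. The Txn1 window held none, which says only that these letters are not in it. Over windows from 250 bases before to 50 after a start, the core also matched in Sod1 (GCGTGGTCA, 56 bases before the start, opposite strand) and Nfe2l2 (TGACTCCGC, 240 bases before the start). It matched in none of the windows of Sod2, Cat, Prdx2, Gpx1 or Gpx4. Hmox1 had no entry in the table. Of all 32851 such promoter windows 12.4% held the core, and of those of the tested genes 14.5%. A match is a description of letters. Searched members with and without it are found both among those called and among those not called.

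**Figure D2:**
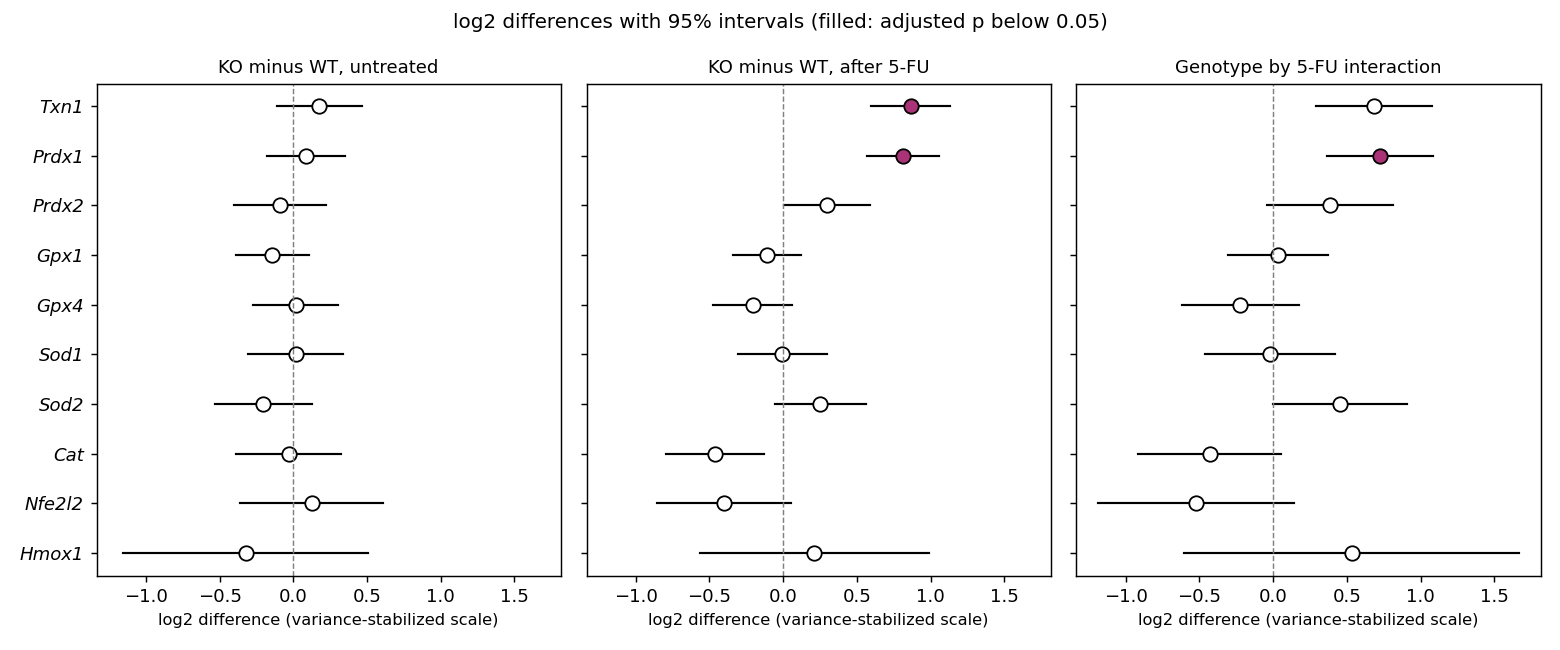
Log2 differences on the variance-stabilized scale (x axis) for the 10 genes (y axis), with 95% intervals from limma, in untreated cells, after 5-FU, and for the difference between these contrasts. Filled points have an adjusted p below 0.05: Txn1 and Prdx1 after 5-FU and Prdx1 in the interaction.

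Prdx2, a second cytosolic peroxiredoxin and one of the most abundant proteins of red cells, did not pass in any comparison. Its counts were 3921, 5676 and 4979 in untreated WT and 4670.5, 4306 and 4494 in untreated KO libraries. With 5-FU they amounted to 4948, 4266, 3741 and 4235 in the WT and 5684, 5261 and 5077 in the KO libraries. All KO libraries after 5-FU lay above all WT libraries after 5-FU, at a log2 difference of 0.29 (95% interval 0.00 to 0.59, adjusted p = 0.196). Such separation after 5-FU was found for 27% of all tested genes. Exons of Prdx2 share 177 bases with Rnaseh2a and 173 with Junb on the opposite strand. Smart-seq2 does not mark the strand and the counting rule is not given, so reads of these genes in the shared bases cannot be told apart.

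Cat encodes catalase, the heme enzyme of peroxisomes that splits hydrogen peroxide, and it fell with 5-FU in KO cells, where Txn1 and Prdx1 rose. Its counts were 3084, 3088 and 4138 in untreated WT and 3152, 3017 and 3853 in untreated KO libraries. After treatment they were 2741, 3074, 3109.7 and 2711 in the WT and 1676, 1911 and 2505 in the KO libraries. All KO libraries after 5-FU lay below every library of the other groups. Within KO cells Cat fell from 3341 ± 449 to 2031 ± 428 (SD, n = 3 each), a 1.65-fold lower level (log2 difference -0.64, SE 0.167, adjusted p = 0.0318, limma). Between KO and WT after 5-FU the log2 difference was -0.46 (95% interval -0.79 to -0.13, adjusted p = 0.0689), which missed the threshold, as did the interaction at -0.43 (95% interval -0.91 to 0.05, adjusted p = 0.36). The genotype difference gained a call in 3 of 24 alternatives, which were quantile normalization, library weights and leaving out KO 5-FU A8 (adjusted p over alternatives 0.0016 to 0.278).

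The call for Cat in KO cells was lost with acquisition year as a term (adjusted p = 0.489), with limma-voom on the recovered reads (0.0727) and without any one of KO 5-FU A5, KO 5-FU A6, untreated KO D4 and untreated KO D6. Without these libraries the adjusted p was 0.154, 0.125, 0.0717 and 0.133 by limma. Over all alternatives it ran from 0.0093 to 0.489. The log2 difference stayed between -0.77 and -0.53.

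**Figure D3:**
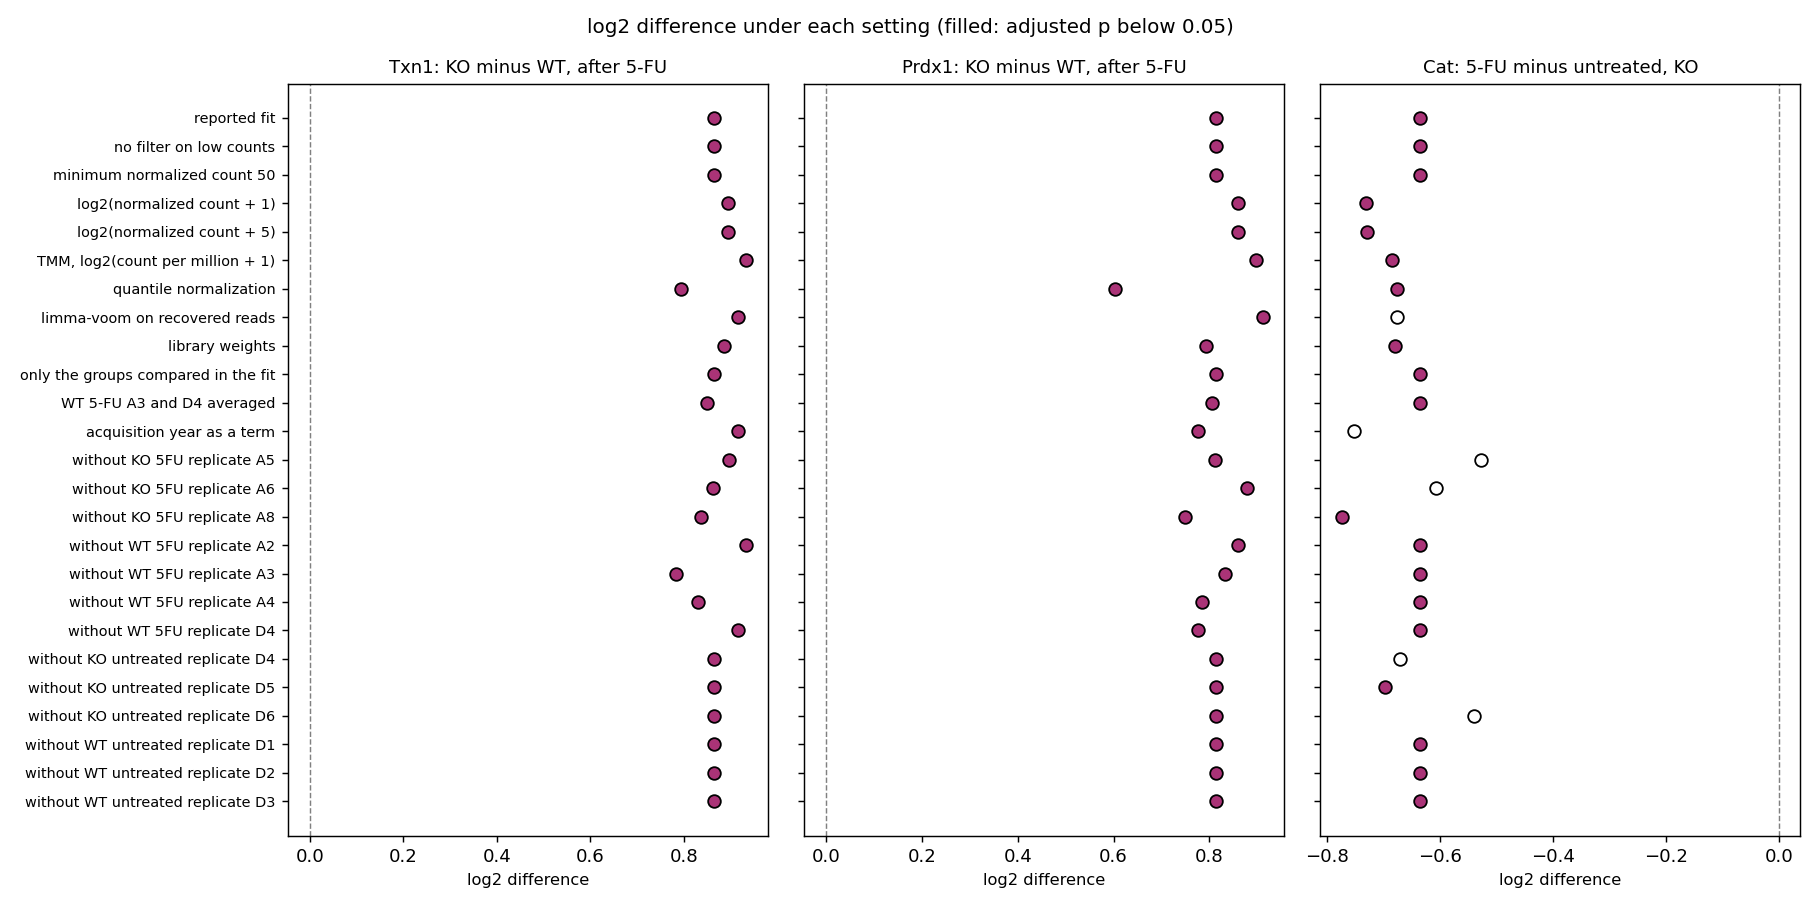
Log2 difference (x axis) of Txn1 and Prdx1 between KO and WT after 5-FU, and of Cat between treated and untreated KO cells, in the reported fit and each alternative (y axis). Filled points have an adjusted p below 0.05. Txn1 stays between 0.78 and 0.93 and Prdx1 between 0.60 and 0.91, filled throughout, while Cat is open in 6 alternatives.

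The superoxide dismutases did not pass in any comparison. Sod1, the copper and zinc enzyme of the cytosol, had counts of 17895, 13577 and 14782 in untreated WT and 14615, 18672 and 13638 in untreated KO libraries. After 5-FU it had 11015, 12794, 12683 and 15976 in the WT and 12727, 12981 and 13162 in the KO libraries. The KO and WT means after 5-FU were nearly equal, 12957 and 13117, and the log2 difference was -0.01 (95% interval -0.31 to 0.29, adjusted p = 0.988). All KO libraries after 5-FU lay below all untreated KO libraries, with a log2 difference of -0.25 (95% interval -0.57 to 0.07, adjusted p = 0.385), and 28.8% of all genes separated between these groups in one direction or the other. 

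Sod2, the manganese enzyme of mitochondria, had counts of 3631, 4705 and 4175 in untreated WT and 3346, 4570.5 and 2927 in untreated KO libraries. After 5-FU it had 3219, 3588, 3571 and 3478 in the WT and 4172, 4031 and 4373 in the KO libraries. The WT libraries after 5-FU lay below both the untreated WT libraries and the KO libraries after 5-FU without overlap, and 16.7% of all genes separated between treated and untreated WT cells. The log2 difference was 0.25 (95% interval -0.06 to 0.56, adjusted p = 0.31) between KO and WT after 5-FU and -0.24 (95% interval -0.55 to 0.07, adjusted p = 0.366) with 5-FU in WT cells. The interaction was 0.45 (95% interval 0.00 to 0.91, adjusted p = 0.3).

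The glutathione peroxidases are selenoproteins, and neither passed in any comparison. Gpx1, the abundant cytosolic enzyme that reduces hydrogen peroxide, had counts of 34928, 34488 and 38232 in untreated WT and 31195, 36409 and 30078 in untreated KO libraries. After 5-FU it had 43365, 38079, 40566 and 38115 in the WT and 35016, 34206 and 42197 in the KO libraries. The genotypes overlapped in both conditions, at log2 differences of -0.14 (95% interval -0.39 to 0.11, adjusted p = 0.738) without and -0.11 (95% interval -0.34 to 0.12, adjusted p = 0.587) with 5-FU. 

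Gpx4, which reduces lipid peroxides in membranes and holds back ferroptosis, had counts of 6800.5, 6337 and 7187 in untreated WT and 7165, 7111 and 6282 in untreated KO libraries. After 5-FU it had 7065, 6775, 7821 and 8971 in the WT and 5974, 6331 and 7409 in the KO libraries. The groups overlapped in all 4 comparisons, and the log2 difference between KO and WT after 5-FU was -0.21 (95% interval -0.48 to 0.06, adjusted p = 0.34). For Gpx1 and Gpx4 the intervals of the genotype difference after 5-FU lie below the values measured for Txn1 and Prdx1.

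Nfe2l2 encodes NRF2, whose protein is controlled mainly through its degradation with KEAP1, so its mRNA level is only part of its regulation. Its counts were 2165, 3086 and 4466 in untreated WT and 3231, 2591 and 4778 in untreated KO libraries. After 5-FU they were 3233, 3355, 3789.7 and 2796 in the WT and 2017, 2319 and 2915 in the KO libraries. After 5-FU, 2 of the 3 KO libraries lay below all WT libraries and the third among them, and the log2 difference of -0.40 (95% interval -0.86 to 0.06, adjusted p = 0.268) did not pass.

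Hmox1, heme oxygenase 1, which breaks down heme and is a classical NRF2 target, had the lowest level of the 10 genes and varied widely. Per kilobase of exons, Hmox1 stood above 62% of the tested genes. Its counts were 438, 252 and 156 in untreated WT and 0.921, 473 and 278 in untreated KO libraries, where D4 held a single read. In treated cells they were 84.5, 159, 301 and 124 in the WT and 411, 103 and 208 in the KO libraries. All groups overlapped, and the log2 difference after 5-FU, 0.21 (95% interval -0.56 to 0.99, adjusted p = 0.782), had a standard error of 0.368 against 0.127 for Txn1. Without untreated KO D4 the untreated genotype difference changed sign, from -0.32 to 0.24.

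The levels of the 10 genes were compared with one another per kilobase of merged GENCODE exons, as normalized count per kb averaged over the 4 groups. Gpx1 was highest at 25263, above 99.7% of the tested genes, followed by Txn1 at 10588, Gpx4 at 4040, Sod1 at 3598, Prdx1 at 2132, Prdx2 at 1556, Cat at 1121, Nfe2l2 at 822, Sod2 at 386 and Hmox1 at 134. The ranges over single libraries separated Gpx1 (20873 to 30094) from Txn1 (7043 to 16315) and Txn1 from Gpx4 (3465 to 5203). Each of Gpx4, Sod1, Prdx1, Prdx2 and Cat overlapped with the gene next below it in this order. Nfe2l2 (531 to 1259) stood above Sod2 (292 to 470) and Sod2 above Hmox1 (0.526 to 269.9). The value of Sod2 depends on its merged model of 10008 bases, the longest of the 10. In KO cells after 5-FU, Prdx1 reached 3091 per kb, close to Sod1 at 3264, while in WT cells after 5-FU the values were 1704 and 3304.

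Processed copies with at least 95% identity over at least 200 bases exist for Gpx4 and Prdx1 (2 each) and for Prdx2, Sod1 and Txn1 (1 each), none of them with a row in the table. GENCODE types all of them as processed pseudogenes except Gpx4-ps2, a processed transcript. How the authors' counting treated reads that fit both copies could not be learned from the labels.

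The gene models lie on the following chromosomes of GRCm38: Txn1 on chr4:57943373-57956411 (minus strand), Prdx1 on chr4:116685544-116700822 (plus), Prdx2 on chr8:84969587-84974834 (plus) and Cat on chr2:103453849-103485160 (minus). Sod1 lies on chr16:90220754-90226329 (plus), Sod2 on chr17:13006846-13040063 (plus), Gpx1 on chr9:108338903-108340343 (plus) and Gpx4 on chr10:80047166-80056439 (plus). Nfe2l2 lies on chr2:75675513-75704641 (minus) and Hmox1 on chr8:75093621-75100589 (plus).

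Beyond the 10 genes, 116 genes of the same pathways were listed, 109 had a row and 108 were tested. These lists too were chosen with earlier results of these data known. After 5-FU, 11 were higher and 7 lower in KO than in WT cells, 16.7% of those tested against 10.9% of all genes. None was called between untreated genotypes, where 14 of the 108 had an unadjusted p below 0.05 by limma and voom called 0. In WT cells 7 fell with 5-FU and none rose, 6.48% of those tested against 6.68% of all genes. In KO cells 9 fell and 3 rose, 11.1% against 5.92%, with Cybb counted among the 3. The 7 calls in WT cells became 1 with acquisition year as a term, 4 with only the groups compared, 4 without WT 5-FU D4, 13 with voom and 18 with library weights. The 12 in KO cells became 1 with the year, 6 with voom, 4 without KO 5-FU A5, 3 without A6 and 5 without either of untreated KO D5 and D6. Against 18 genotype calls after 5-FU, the count was 11 without KO 5-FU A5, 10 without A6, 12 without A8 and 10 without either of WT 5-FU A3 and D4. Of the 18, 8 held in all 24 alternatives: Txnip, Glrx3, Gsr, Nadk, Selenot, Park7, Gstt1 and Blvrb. Cybb, which the stricter filter left out, held in the other 23. It reached the count minimum only in the 3 KO libraries after 5-FU, so its call is no support for a difference. The same holds for its call with 5-FU in KO cells. Both shares above, 16.7% and 11.1%, count it.

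Of the 11 other genes of the thioredoxin and glutaredoxin system, 3 were higher and 1 was lower in KO than in WT cells after 5-FU. That is 36.4% of the list against 10.9% of all genes. The lower one, Txnip, encodes the protein that binds and inhibits thioredoxin and that restrains glucose uptake. Its counts were 8751, 10018 and 10643 in untreated WT and 10291, 8811 and 9515 in untreated KO libraries. With 5-FU they amounted to 7647, 9705, 9197 and 8465 in the WT and 2440.1, 2673 and 2749 in the KO libraries. All 3 KO libraries after 5-FU lay far below the other 10. Txnip was 3.34-fold lower in KO than in WT cells after 5-FU (log2 difference -1.60, SE 0.123, adjusted p = 9.74e-07, limma) and 3.64-fold lower than in untreated KO cells (log2 difference -1.72, SE 0.131, adjusted p = 2.12e-06). The interaction was -1.56 (95% interval -1.94 to -1.18, adjusted p = 0.000286), and all 3 calls held in every alternative. Txn1 and its inhibitor Txnip changed in opposite directions in the same libraries.

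Txnrd1, the cytosolic reductase that recharges thioredoxin with NADPH, was 2-fold higher in KO than in WT cells after 5-FU. Its counts after 5-FU were 1413, 781, 1386 and 717 in the WT and 2531, 1855 and 2058 in the KO libraries, without overlap (log2 difference 0.84, SE 0.212, adjusted p = 0.0171, limma). The call was lost without KO 5-FU A5 or A8 or without WT 5-FU A3 or D4, with A3 and D4 averaged and with acquisition year as a term (adjusted p over alternatives 1.23e-05 to 0.0949). Glrx3, a cytosolic glutaredoxin of iron-sulfur supply, was 1.75-fold higher (log2 difference 0.72, SE 0.146, adjusted p = 0.00394). Txn2, the mitochondrial thioredoxin, was 1.49-fold higher (log2 difference 0.53, SE 0.16, adjusted p = 0.0426), a call that held in 14 of 24 alternatives. It was lost without any one of the 7 libraries of the 5-FU groups, with adjusted p over alternatives from 0.00137 to 0.184. Quantile normalization, averaging of A3 and D4 and acquisition year as a term lost it as well. The other 7 genes of this list did not pass.

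**Figure D4:**
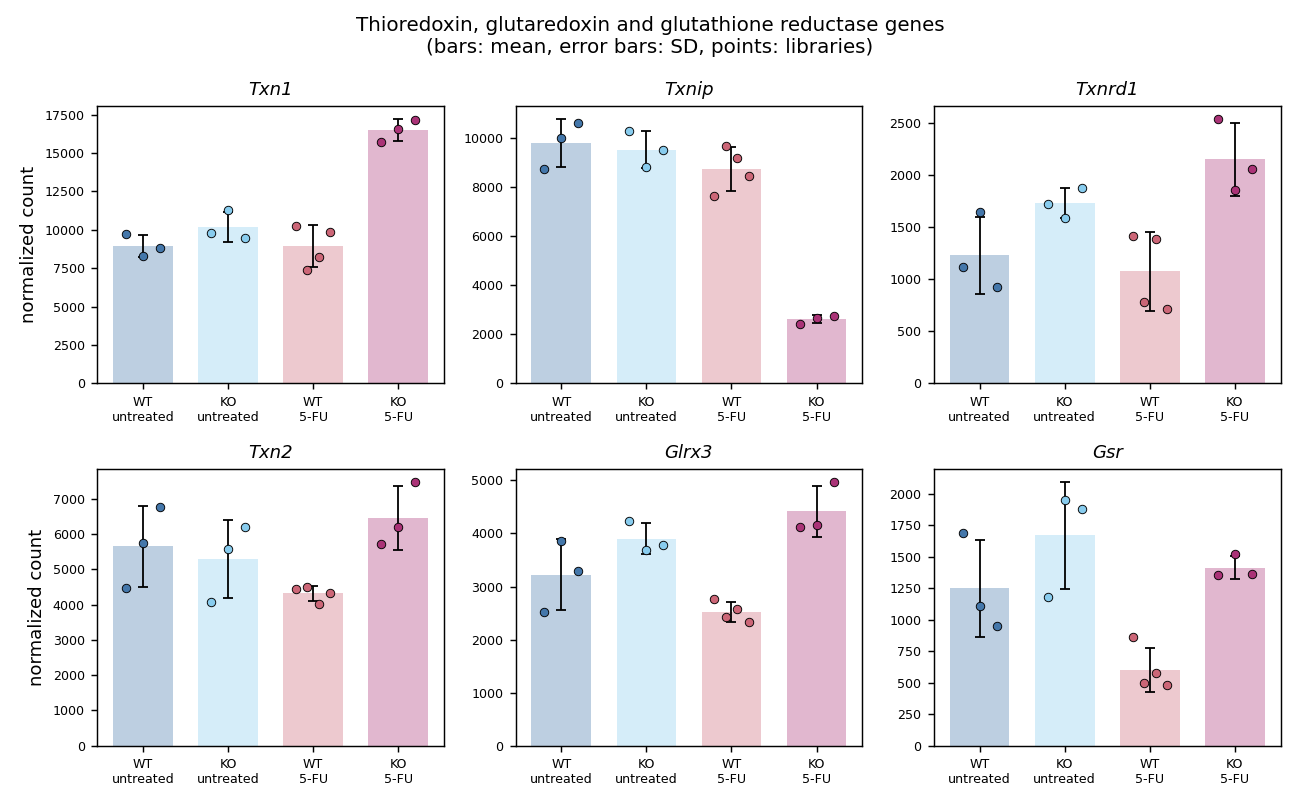
Normalized counts (y axis, linear from 0) of Txn1, Txnip, Txnrd1, Txn2, Glrx3 and Gsr in the 4 groups (x axis). Bars are group means, error bars SD and points single libraries. In KO libraries after 5-FU Txn1 is high and Txnip low relative to all other libraries, and Txnrd1, Txn2, Glrx3 and Gsr lie above the WT libraries after 5-FU.

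Among the other peroxiredoxins and their partners, 0 of 8 were called between the genotypes after 5-FU, with 3 at an unadjusted p below 0.05 by limma and 0 called by voom, and all 8 log2 differences were positive (median 0.32). The smallest p was that of Srxn1, sulfiredoxin, which repairs overoxidized peroxiredoxins. It had counts of 28.9, 101, 0.951 and 121 in WT, with 1 read in A4, and 279, 410.3 and 181 in KO libraries after 5-FU, with a log2 difference of 0.92 (95% interval 0.27 to 1.57, adjusted p = 0.0647). None of the 3 measured genes of the other glutathione peroxidases passed (1 at an unadjusted p below 0.05, 0 called by voom), nor did Ccs, the copper chaperone of SOD1, at -0.19 (95% interval -0.64 to 0.26, adjusted p = 0.647).

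Of 9 tested genes of glutathione synthesis and recycling, 1 passed between the genotypes after 5-FU, 11.1% of the list against 10.9% of all genes. Gsr, glutathione reductase, had counts of 861, 495, 575 and 480.2 in the WT and 1358, 1519.9 and 1367 in the KO libraries after 5-FU, 2.35-fold higher in KO cells (log2 difference 0.92, SE 0.206, adjusted p = 0.00856, limma). In WT cells Gsr fell with 5-FU from 1249 to 603 (log2 difference -0.75, SE 0.206, adjusted p = 0.0374), a call that held in 13 of 24 alternatives. It was lost with acquisition year as a term, with A3 and D4 averaged and with only the groups compared in the fit. Leaving out any one of KO 5-FU A5, A6 and A8, WT 5-FU A3, A4 and D4, and untreated WT D1 and D2 also lost it (limma adjusted p over alternatives 0.00943 to 0.186). The 12 genes of NADPH supply had 2 calls between the genotypes after 5-FU, both higher in KO cells, 16.7% of the list against 10.9% of all genes. Nadk, the cytosolic kinase that makes NADP from NAD, was 3.23-fold higher, at 1408 against 436 (log2 difference 1.19, SE 0.182, adjusted p = 0.000484, limma), and had fallen with 5-FU in WT cells (log2 difference -0.74, SE 0.182, adjusted p = 0.0219). That fall lost its call with acquisition year as a term, with only the groups compared in the fit and without WT 5-FU D4 or untreated WT D1 or D3 (limma adjusted p over alternatives 0.0129 to 0.192). Idh2, the mitochondrial NADP-dependent isocitrate dehydrogenase, was 1.58-fold higher (log2 difference 0.63, SE 0.191, adjusted p = 0.0432), a call that held in 10 of 24 alternatives. That call was lost without any one of the libraries of the KO 5-FU and untreated KO groups or of WT 5-FU A3, A4 and D4, with adjusted p over alternatives from 0.00165 to 0.208. Averaging of A3 and D4, acquisition year as a term and quantile normalization were among the other alternatives that lost it.

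The glutathione transferases are detoxifying enzymes that attach glutathione to electrophiles. With 5-FU, 3 of 16 fell in WT cells and 5 of 16 in KO cells, and none rose, which is 18.8% and 31.2% of the list against 6.68% and 5.92% of all genes. Gstm1 fell in both, from 5786 to 2253 in WT (log2 difference -1.18, SE 0.205, adjusted p = 0.00212, limma) and from 4519 to 1307 in KO cells (log2 difference -1.55, SE 0.22, adjusted p = 0.000768). Gsta4 fell in WT cells from 993 to 87.9 (log2 difference -1.83, SE 0.221, adjusted p = 0.000113). Between KO and WT after 5-FU, Gstt1 was 4.57-fold lower, at 321 against 1468 (log2 difference -1.51, SE 0.243, adjusted p = 0.00073), and Gstm7 3.55-fold lower (log2 difference -0.90, SE 0.251, adjusted p = 0.029). Gstt1 also gave an interaction of -1.67 (95% interval -2.43 to -0.92, adjusted p = 0.0187), lost without KO 5-FU A5, KO 5-FU A6 or untreated KO D6 (adjusted p over alternatives 0.00414 to 0.0608). The Gstm7 call was lost without KO 5-FU A5 or A6 or WT 5-FU A3 or D4 (adjusted p over alternatives 2.14e-05 to 0.142). This call was also lost with quantile normalization, with voom, with A3 and D4 averaged and with acquisition year as a term. With acquisition year as a term the falls of Gstm1 lost their call in WT cells (adjusted p = 0.0723, over alternatives 0.000173 to 0.0723) and in KO cells (adjusted p = 0.134, over alternatives 3.44e-05 to 0.134), while that of Gsta4 in WT cells held in every alternative. The fall of Mgst1 in WT cells (log2 difference -0.66) held in 10 of 24 alternatives and was lost with acquisition year as a term. It was also lost without KO 5-FU A5 or A6, any one WT 5-FU library, or untreated WT D1 or D3. In KO cells Gstt1 (log2 difference -1.37), Mgst2 (-1.31), Gstm5 (-0.73) and Gstm7 (-0.98) fell in calls that held in 23, 18, 16 and 15 of 24 alternatives, and all 4 were lost with acquisition year as a term. The last 3 were also lost without KO 5-FU A5 or A6. Gstm5 and Gstm7 were lost without any one untreated KO library as well, Gstm5 without KO 5-FU A8 and Gstm7 without WT 5-FU A3.

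Of 19 partners, inhibitors and targets of NRF2, 1 was higher and 1 lower in KO than in WT cells after 5-FU, 10.5% of the list against 10.9% of all genes. Blvrb, biliverdin reductase B, was 2.41-fold lower (log2 difference -0.88, SE 0.172, adjusted p = 0.00316, limma). Hmox2, the constitutive heme oxygenase, was 1.56-fold higher (log2 difference 0.56, SE 0.171, adjusted p = 0.0455), a call that held in 12 of 24 alternatives and was lost without any one of the 7 libraries of the 5-FU groups or of untreated KO D4 and D6 (adjusted p over alternatives 0.00582 to 0.196). Voom, averaging of WT 5-FU A3 and D4 and acquisition year as a term lost it as well. Hmox2 had fallen with 5-FU in WT cells, from 3975 to 2145 (log2 difference -0.77, SE 0.171, adjusted p = 0.0114, limma). That call was lost with acquisition year as a term and without untreated WT D3 (adjusted p over alternatives 0.00232 to 0.213). The ferritin heavy chain gene Fth1 had fallen there too, from 38193 to 26406 (log2 difference -0.53, SE 0.113, adjusted p = 0.00897, limma). Its call was lost with acquisition year as a term (adjusted p over alternatives 0.00052 to 0.186). In KO cells the ferritin light chain gene Ftl1 fell from 60300.0 to 44202 (log2 difference -0.45, SE 0.123, adjusted p = 0.0414, limma). The Ftl1 call held in 15 of 24 alternatives (adjusted p 0.0152 to 0.516) and was lost with acquisition year as a term. It was also lost without any one of KO 5-FU A5 and A6, WT 5-FU A2, A3 and A4, and untreated KO D4, D5 and D6.

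On the side of oxidant production, 2 of 8 NADPH oxidase subunit genes, Cybb and Cyba, were called higher in KO than in WT cells after 5-FU. That is 25% of the list against 10.9% of all genes, with Cybb counted. Cybb, the catalytic subunit of the phagocyte oxidase, had 59, 105 and 13 reads in KO libraries A5, A6 and A8 and 0 reads in all WT libraries after 5-FU and all untreated KO libraries. At a floor of 3 reads per library it was at least 23.2-fold higher in KO than in WT cells after 5-FU. Cybb reached the count minimum only in the 3 KO libraries after 5-FU, so that it entered the test only through the group where it was high, and its call is no support for a difference. Cyba, its membrane partner, was 1.61-fold higher (log2 difference 0.60, SE 0.161, adjusted p = 0.0245), a call lost without KO 5-FU A6 or A8 or WT 5-FU A3 or D4 (adjusted p over alternatives 0.000171 to 0.1301). The Cyba call was also lost with quantile normalization, with A3 and D4 averaged and with acquisition year as a term. Cybb is a myeloid gene, and the sum of 9 macrophage markers was 598 to 1172 in KO and 752 to 1496 in WT libraries after 5-FU. Vsig4 was at 0 in the KO libraries after 5-FU, as in all untreated KO libraries. Without Spic, the 1 of 8 tested markers that was lower in KO cells (log2 difference -0.90, SE 0.194, adjusted p = 0.00625, limma), the sums were 439 to 963 in KO and 268 to 976 in WT libraries. None was called higher, but 6 of the 8 log2 differences were positive, with a median of 0.40 against -0.02 for all tested genes. C1qc, a complement subunit made by macrophages, was higher in KO cells after 5-FU than without it (log2 difference 0.99, SE 0.213, adjusted p = 0.011, limma) and gave an interaction of 1.36 (95% interval 0.74 to 1.97, adjusted p = 0.0197). It averaged 0.353 in untreated KO libraries, with 2 of 3 at 0 reads, and 132 in KO libraries after 5-FU. In WT libraries it averaged 123 untreated and 47.7 after 5-FU. C1qc was the only 1 of the 8 markers called in each of these comparisons, where 5.92% and 2.84% of all genes were called. Both calls of C1qc were lost without KO 5-FU A5 or A8, and the first also with acquisition year as a term (adjusted p over alternatives 0.0013 to 0.36 and 0.00931 to 0.0573). The part of these cells in the Cybb and Cyba values was not tested.

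Among 10 measured regulators of the oxidant level in HSCs, 1 was higher and 2 lower in KO than in WT cells after 5-FU. That is 30% of the list against 10.9% of all genes. Park7, which encodes the oxidant-sensing protein DJ-1, was 1.52-fold higher (log2 difference 0.58, SE 0.127, adjusted p = 0.0074, limma). Meis1, a homeobox factor that limits oxidants in HSCs, was 1.92-fold lower (log2 difference -0.80, SE 0.183, adjusted p = 0.00954), a call lost with voom and without KO 5-FU A6 (adjusted p over alternatives 1.3e-05 to 0.058). Sirt3, the mitochondrial deacetylase that activates SOD2, was 2.2-fold lower (log2 difference -0.94, SE 0.241, adjusted p = 0.019), a call lost without KO 5-FU A5 or A6 or WT 5-FU A3 or D4 (adjusted p over alternatives 1.37e-05 to 0.0789). The Sirt3 call was also lost with voom, with A3 and D4 averaged and with acquisition year as a term. Of 11 genes linked to selenoprotein synthesis 2 were called, 18.2% of the list against 10.9% of all genes. Selenot, an oxidoreductase of the endoplasmic reticulum, was 3.31-fold higher (log2 difference 1.06, SE 0.217, adjusted p = 0.00433, limma). Selenok was 1.61-fold lower (log2 difference -0.58, SE 0.168, adjusted p = 0.0368, limma). The Selenot interaction was 1.69 (95% interval 1.02 to 2.36, adjusted p = 0.0107). The Selenok call was lost without any one of the 3 KO 5-FU libraries or of WT 5-FU A3 and D4 (adjusted p over alternatives 7.51e-05 to 0.124). It was also lost with voom, with only the groups compared in the fit, with A3 and D4 averaged and with acquisition year as a term.

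The genes with the most similar course over the 13 libraries were taken from 10736 genes with a mean normalized count of at least 50, by Pearson's r of the deposited values, as a description. For Prdx1 they were Mdh2 (r = 0.96), mitochondrial malate dehydrogenase, and Psma5 (0.96), a proteasome subunit. For Txn1 they were the processed pseudogene Gm10108 (0.97) and Gm20390 (0.96), and for Cat they were Serpinb9 (0.98) and Dguok (0.97). The highest r for the other members ran from 0.86 for Sod2, with Haus1, to 0.92 for Prdx2, with Nmral1. Among the 10 genes themselves the closest pairs were Txn1 with Prdx1 (0.92) and Cat with Nfe2l2 (0.80), while Cat and Txn1 ran opposite (-0.77). The superoxide dismutases (0.23) and Gpx1 with Gpx4 (0.50) followed each other weakly.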

How the data were processed

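RNA of 100 sorted HSCs per library was sequenced after Smart-seq2, per the labels' protocols. The authors deposited log2-scale variance-stabilized values made with DESeq2. Trimmomatic, Bowtie 1.1.1 and mm10 are named per the submitters' processing notes. The labels state no counter, annotation or strand setting. Inverting the transformation (value at zero 7.6484) returned whole reads within 0.1 for 100% of values in all 13 libraries. Symbols came from GENCODE M21 (GRCm38), 147 identifiers having none. Of 13201 genes, 12846 reached a normalized count of 10 in 3 or more libraries and were tested with limma 3.58.1 (R 4.3.3) on the deposited values. The fit had one mean per group, eBayes with trend (residual df 9, prior df 7.67), two-sided tests and Benjamini-Hochberg adjustment within each of 5 comparisons, and the code was checked on simulated data. Named genes were all members, up to 4 called genes per pathway list and comparison with the smallest p, or where none passed the 1 with the smallest p, and 2 nearest profiles per member. Procr, Spic, C1qc, Car2, Hbb-bt, Prtn3 and the transferase calls beyond these 4 were named after their values were seen. Members, lists and tests were chosen with earlier results of these data known. Alternatives covered filters, pseudocounts, scaling, voom, library weights, the groups fitted, averaging of 2 alike libraries, acquisition year and leaving out each library. Copies were found with blastn 2.17.0.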

Additional observations from a re-analysis of the deposited data

Results flagged for a closer look

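The genotype difference in Prdx1 differed between treated and untreated cells by a test of that difference itself. The interaction was 0.73 on the log2 scale (limma adjusted p = 0.0303), with KO above WT by 0.81 after 5-FU and by 0.09 without it. All 3 KO libraries after 5-FU lay above all other libraries. The adjusted p of the interaction ran from 0.0164 to 0.078 over the alternatives. In the WT group after 5-FU, the only one with 4 libraries, none of the 10 genes had a library far from the other 3 by Dixon's ratio at the 95% level.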

How the results depend on the processing

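Of 1190 alternative values of the 10 genes, 1108 kept their direction and their side of the threshold, 20 lost the call, 10 gained it and 52 changed sign. All 52 sign changes were in comparisons that had not passed. The number of members called between KO and WT after 5-FU was 2, against 6 with library weights and 3 with quantile normalization or without KO 5-FU A8. With 5-FU in KO cells it was 3, and 0 with acquisition year as a term. For the interaction it was 1, against 2 with TMM scaling, 2 with voom, 0 with acquisition year as a term and 0 to 2 on leaving out a library. For the comparison between untreated genotypes and for 5-FU in WT cells it was 0 in every alternative. No setting moved the median of all genes by over 0.1, and the causes of these changes were not tested. No paired analysis was possible because the groups share fewer than 2 replicate numbers.

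Signs changed in the following fits. Between untreated genotypes, Sod1 was -0.0889 with quantile normalization and -0.0611 with voom, and Gpx4 -0.0417 and -0.0075. After 5-FU, Sod1 between genotypes was 0.0356 with TMM, 0.0066 with voom, 0.0393 with A3 and D4 averaged and 0.0913 with the year, and Gpx1 was 0.0283 with quantile normalization. With 5-FU in WT cells and the year as a term, Sod1 was 0.0593, Txn1 0.14 and Nfe2l2 -0.14. Txn1 was 0.008 with A3 and D4 averaged, and Nfe2l2 -0.0601 with library weights. With 5-FU in KO cells and the year, Sod1 was 0.13 and Gpx4 0.24. The Sod1 interaction was 0.0309 with TMM, 0.0212 with quantile normalization, 0.0677 with voom, 0.0226 with A3 and D4 averaged and 0.0745 with the year.

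On leaving out each library in turn, log2 differences between untreated genotypes ran from -0.11 to 0.13 for Sod1, -0.13 to 0.0955 for Cat, -0.23 to 0.02 for Prdx2, -0.0296 to 0.073 for Gpx4, -0.11 to 0.36 for Nfe2l2 and -0.71 to 0.24 for Hmox1. Between genotypes after 5-FU they ran from -0.0823 to 0.0913 for Sod1 and -0.0234 to 0.43 for Hmox1. With 5-FU in WT cells they ran from -0.075 to 0.0743 for Txn1 and -0.16 to 0.30 for Nfe2l2. With 5-FU in KO cells they ran from -0.14 to 0.0019 for Gpx4 and -0.38 to 0.57 for Hmox1. Interactions ran from -0.13 to 0.11 for Sod1, -0.0638 to 0.11 for Gpx1 and -0.0298 to 0.92 for Hmox1.

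The number of all genes called, which sets the background, was 1395 between genotypes after 5-FU. It was 5611 with library weights, 913 with A3 and D4 averaged, 881 with the year and 694 to 1606 on leaving out a library (lowest without KO 5-FU A5, A6 and A8 and WT 5-FU A3 and D4, at 756, 694, 793, 890.0 and 876). For 5-FU in WT cells 858 genes became 1732 with weights, 415 with only the groups compared, 510 with averaging, 219 with the year and 464 to 990.0 without a library (464 without WT 5-FU D4, 532 without A3). For 5-FU in KO cells 761 became 488 with voom, 1466 with weights, 7 with the year and 356 to 979 without a library (356 without A5 or A6, 468 without A8, 444 and 449 without untreated KO D4 and D6). The 365 interaction calls became 864, 237 and 199 with weights, averaging and the year, and 140.0 to 476 without a library (140.0 without KO 5-FU A6, 178 without A5, and 198 to 227 without WT 5-FU A3 or D4 or untreated KO D4 or D6). The 4 calls between untreated genotypes ran from 0 with voom to 25 without untreated WT D2. With voom 63.7% of the calls were higher in KO cells after 5-FU, against 49.4% in the reported fit. In KO cells 63.7% were higher after 5-FU against 46.9%, and 52.2% of interaction calls were positive against 36.7%. The 18 other pathway genes called between genotypes after 5-FU became 54 with weights and 10 with averaging or the year.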
